A study of Mus musculus with 17 samples.

Results

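The respiratory chain genes of the mouse kidney were followed across 5 genotypes, as the nuclear-encoded subunits and the subunits encoded in mitochondrial DNA. Members were the protein-coding mouse genes whose GENCODE symbols begin with Nduf, Uqcr, Cox4 to Cox8, Atp5 or mt-, together with Sdha to Sdhd. This gave 107 genes of 35971, of which 94 were nuclear and 13 were mt- genes, and all 107 had transcripts in the data. The nuclear members comprised 36 complex I genes, 8 complex I assembly factors (Ndufaf genes), 4 complex II genes, 8 complex III genes, 20 complex IV genes and 18 ATP synthase genes. The mt- members comprised 7 complex I, 1 complex III, 3 complex IV and 2 ATP synthase genes. A filter on low counts was passed by 105 members, and Cox7b2 and Cox8c, which never exceeded 1 count in a library, were not tested.

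Complexes I and II pass electrons from NADH and succinate to coenzyme Q, complex III passes them on to cytochrome c, and complex IV reduces oxygen with them. Complexes I, III and IV pump protons, and the ATP synthase uses the resulting gradient. Complex II is encoded wholly in the nucleus, whereas the other complexes combine nuclear subunits with core subunits that are transcribed from mitochondrial DNA inside the organelle. The proximal tubule of the kidney is rich in mitochondria.

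Kidney polyA RNA from 17 mice was sequenced, and every mouse carried the lsl-PRCC-TFE3 KI allele, in which the TFE3 fusion of translocation renal cell carcinoma stays silent until Cre removes a stop cassette. In 4 Cre(−) kidneys no Cre was present (replicates 1 and 2 were also HIF1a f/f, and the other two carried no flox allele), and in 3 PRCC‐TFE3 KI kidneys KSP-Cre switched the fusion on with both Hif genes intact. The fusion was combined with HIF1a f/f in 4 KI/Hif1α KO kidneys, with HIF2a f/f in 3 KI/Hif2α KO kidneys, and with both flox alleles in 3 KI/Hif1α/Hif2α DKO kidneys. KSP-Cre is driven by the Cadherin 16 promoter in kidney epithelium, so that other cells of these whole-kidney samples keep their Hif genes. The labels give no age. The libraries held 16504419 to 24668827 counts (median 18635282). The library numbers largely followed the groups, so library order and genotype cannot be told apart. Transcripts of the floxed genes were still counted: Hif1a stood at 162.6 to 198.4 CPM (a gene's counts scaled to its library's TMM-adjusted size) in KI/Hif1α KO against 184.0 to 231.6 CPM in KI kidneys, and Epas1, which encodes HIF2α, at 136.5 to 149.3 CPM in KI/Hif2α KO against 173.2 to 191.7 CPM. Neither difference passed the test (adjusted p = 0.372 and 0.0788 by edgeR's quasi-likelihood test), and whole-gene counts do not show whether the floxed exons were lost.

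The shares taken by both sets of genes were lower wherever Cre was present. The 13 mt- genes held 21.3%, 19.0%, 22% and 22.9% of the counts in the Cre(−) libraries, and 8.77%, 8.75% and 8.60% in the PRCC‐TFE3 KI libraries. The 94 nuclear members held 1.51%, 1.47%, 1.39% and 1.47% in Cre(−), and 1.03%, 0.973% and 1.02% in KI. The groups did not overlap in either share. The mt- share differed by more than the nuclear share, and the log2 ratio of summed mt- to summed nuclear counts was 3.87 ± 0.139 (SD, n = 4) in Cre(−) and 3.11 ± 0.0478 (SD, n = 3) in KI, a difference of -0.75 with no overlap. These sums and their ratio are descriptions without a test, and the ratio needs no scaling between libraries.

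**Figure D1:**
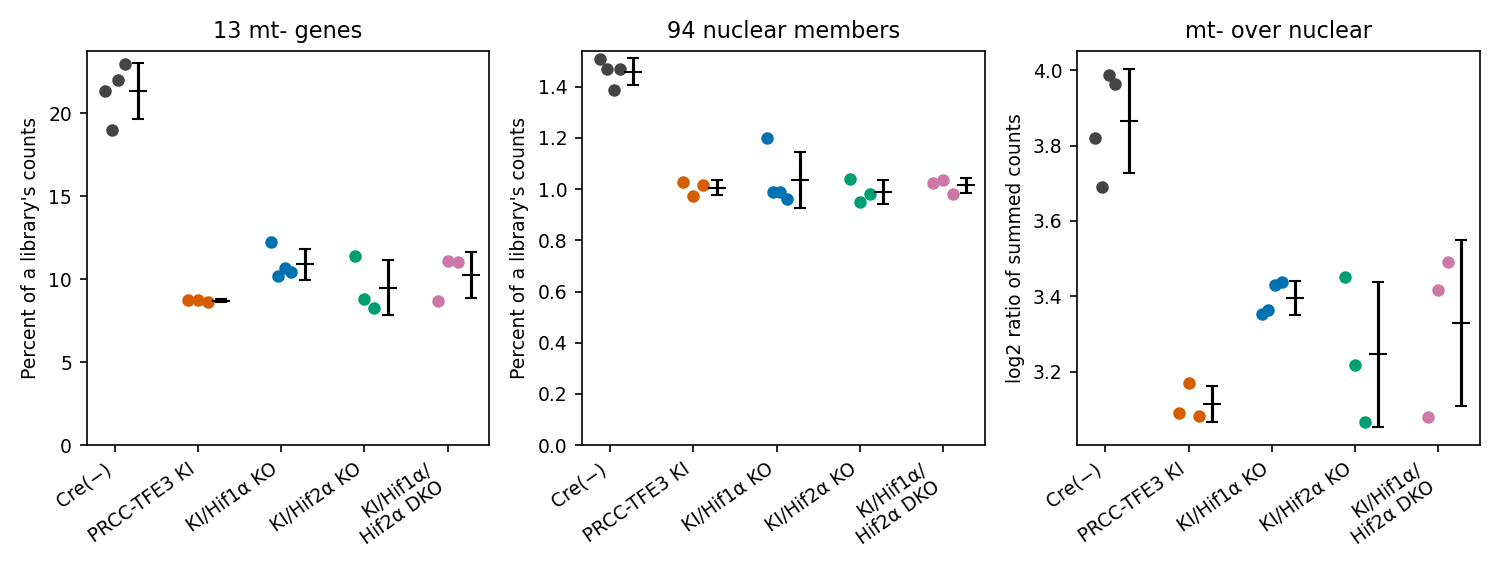
Share of each library's counts held by the 13 mt- genes (left) and the 94 nuclear members (middle), in percent, and the log2 ratio of the summed counts (right; this axis does not start at 0), by genotype; points are libraries, and the bars give the mean ± SD (n = 4, 3, 4, 3 and 3 from left to right). The 3 KI libraries sit between 8.60% and 8.77% for mt- genes, under all Cre(−) libraries at 19.0% or more.

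In PRCC‐TFE3 KI against Cre(−) kidneys all 13 mt- genes were lower, with a median log2 fold change of -1.63, and 83 of the 92 nuclear members tested were lower against 2 that were higher, with a median of -0.84. Over all 17011 genes tested 29.3% were called lower and 31.6% higher, and the median was 0.03. Every one of the 13 mt- genes and 79 nuclear members had all KI libraries below all Cre(−) libraries, which 27.7% of all genes tested did. Calls are at an adjusted p under 0.05 in edgeR's quasi-likelihood test, adjusted over all genes tested by the Benjamini-Hochberg method. In bulk kidney RNA, fewer cells of a mitochondria-rich type and less RNA per cell cannot be told apart. With library totals in place of TMM factors the median of all genes rose to 0.37 and 69 nuclear members were lower, and on log2(TPM + 1) it rose to 0.38 and 58 were lower with 5 higher. Higher genes made up 51.9% of all calls in the main fit, 74.1% with library totals and 78.2% on log2(TPM + 1). The 64 nuclear members with transcripts under 1000 bases had a median of -0.72 and the 28 longer ones of -1.11, against 0.11 and 0.02 over all genes tested in the same length classes.

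**Figure D2:**
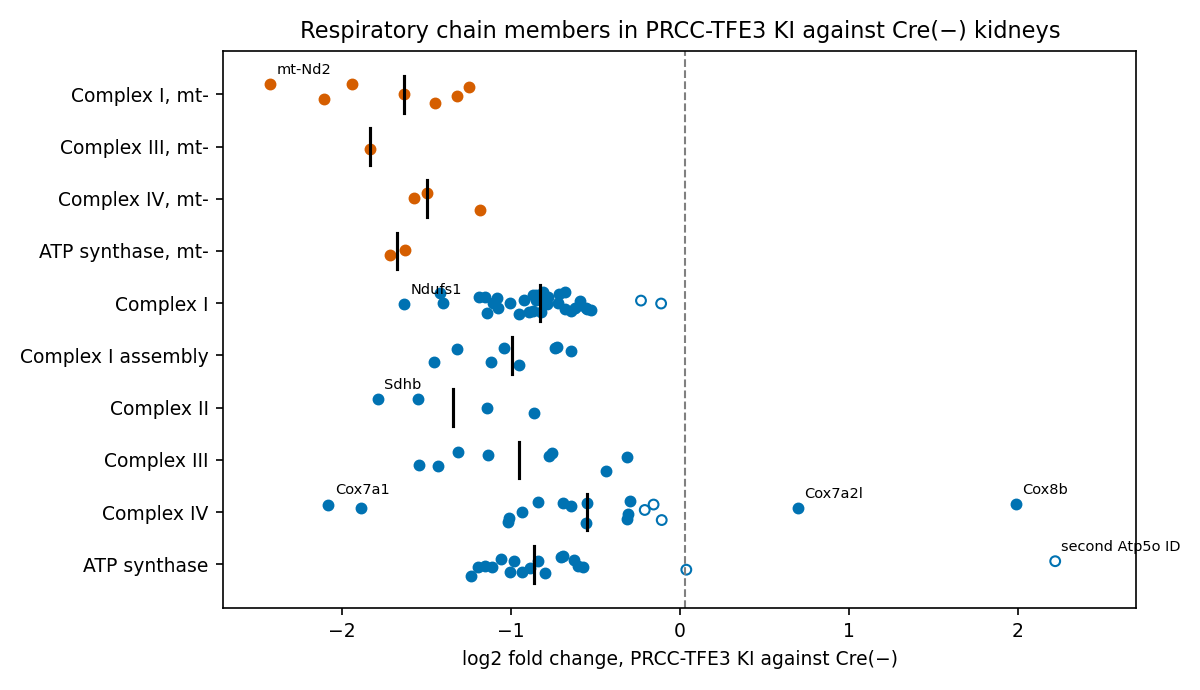
The log2 fold change of each tested member in PRCC‐TFE3 KI against Cre(−) kidneys by complex, mt- genes in orange and nuclear members in blue; filled points passed the test, open points did not, black bars are medians, and the dashed line is the median of all genes tested. The mt- genes lie between -2.42 and -1.19, the nuclear members of complex II between -1.78 and -0.86, and 2 nuclear complex IV members, Cox7a2l and Cox8b, lie above 0 and passed the test. The direction of 7 filled points turned on log2(TPM + 1): Cox4i1, Cox6a1, Cox6b1, Cox8a, Uqcr10, Uqcrh and Atp5s.

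The mt- genes differed among themselves. The complex I subunit gene mt-Nd2 (chrM:3914-4951, GRCm38) had 16180, 14082, 18121 and 18090 CPM in Cre(−) and 3028, 3030 and 3233 CPM in KI, a log2 fold change of -2.42 ± 0.191 (SE, the absolute log2 fold change divided by the square root of the test's F statistic; adjusted p = 5.14e-08, edgeR's quasi-likelihood test), or 5.37-fold lower. It was followed by the complex I genes mt-Nd4l (-2.10) and mt-Nd4 (-1.94), the cytochrome b gene mt-Cytb (-1.83), mt-Atp8 (-1.72), mt-Nd1 (-1.63) and mt-Atp6 (-1.63). The falls were smaller for mt-Co1 (-1.57) and mt-Co3 (-1.50) of complex IV, mt-Nd5 (-1.32) and mt-Nd6 (-1.25). The last is the only member on the other strand of mitochondrial DNA, and it shares 14 bases with mt-Nd5. The pairs mt-Atp8 and mt-Atp6, with 43 shared bases, and mt-Nd4l and mt-Nd4, with 7, are each carried on 1 transcript.

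For mt-Co2, mt-Nd3 and mt-Co1 the counts as deposited carry a limit. A stretch of chromosome 1 holds copies of mitochondrial sequence: Gm28661 (chr1:24614885-24615565) is identical to mt-Co2 over 681 bases, and Gm28438 (chr1:24612775-24613119) matches mt-Nd3 over 345 bases except for T3C, the mt-Nd3 base first, counted from the first base of the gene. The split between gene and copy varied from library to library: Gm28661 had 12680, 5400, 6048 and 213 CPM in the Cre(−) libraries and 38.6, 971 and 1949 CPM in KI. With the copies added, mt-Co2 had 20924 to 28456 CPM in Cre(−) and 9207 to 10049 CPM in KI, and its log2 fold change went from -1.19 to -1.42. For mt-Nd3 it went from -1.45 to -1.89, with 2082 to 2148 CPM in Cre(−) and 470 to 695 CPM in KI. The copy of mt-Co1 on chromosome 1 is Gm29216 (chr1:24615706-24616197), with 99.79% identity over 483 bases. It took 9.92% to 14.27% of the counts of both in Cre(−) and 18.83% to 20.22% in KI. With copies added the log2 fold change of mt-Co1 went from -1.57 to -1.45. All 13 mt- genes stayed lower with copies added.

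Complex I, which oxidises NADH, had 34 of 36 nuclear genes lower (median -0.83) and none higher. The 7 nuclear core subunits, which bear the flavin and the iron-sulfur clusters, were all lower with a median of -1.11, and 27 of 29 accessory subunits were lower with a median of -0.79. Ndufs1, the largest core subunit, had 320, 311, 321 and 279 CPM in Cre(−) and 101, 106 and 91.2 CPM in KI, a log2 fold change of -1.63 ± 0.110 (SE; adjusted p = 1.13e-08, edgeR's quasi-likelihood test). Ndufv1, the subunit that binds NADH, was lower by -1.11 ± 0.0879. Of the accessory subunits Ndufa9 was lowest at -1.42, and those that did not pass the test were Ndufa7 (-0.11, adjusted p = 0.513 by the same edgeR test) and Ndufb8. Ndufb8 had 213 to 243 CPM in Cre(−) and 174, 178 and 227 CPM in KI, so the groups overlapped (-0.23, adjusted p = 0.0554 by edgeR, and 0.11 with library totals). All 8 Ndufaf assembly factors were lower, with a median of -0.99, from -0.64 for Ndufaf2 to -1.46 for Ndufaf6.

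Complex II, also called succinate dehydrogenase and shared with the citric acid cycle, had all 4 genes lower and a median of -1.34, the lowest of the nuclear complexes. Sdhb, its iron-sulfur subunit (chr4:140961203-140979193), had 313, 287, 281 and 306 CPM in Cre(−) and 85.8, 81.9 and 90.6 CPM in KI. That was a log2 fold change of -1.78 ± 0.128 (SE; adjusted p = 2.05e-08, edgeR's quasi-likelihood test), or 3.45-fold lower, with no overlap. Sdha, the flavoprotein, changed by -1.55, and the membrane anchors Sdhc and Sdhd by -1.14 and -0.86.

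All 8 nuclear complex III genes were lower, with a median of -0.95. The core protein genes Uqcrc2 (-1.54) and Uqcrc1 (-1.31) and the Rieske iron-sulfur protein gene Uqcrfs1 (-1.43) had lower log2 fold changes than Uqcr10 (-0.44) and the hinge protein gene Uqcrh (-0.31). The direction of Uqcrh turned with library totals and on log2(TPM + 1), and that of Uqcr10 on log2(TPM + 1). Uqcrfs1 had 195 to 232 CPM in Cre(−) and 76.6, 78.9 and 81.8 CPM in KI, and Uqcrc1 had 172 to 187 against 69.3, 73.5 and 75.2 CPM, without overlap in either gene. The ATP synthase had 16 of 18 genes lower and none higher, among them Atp5s (-0.71), whose direction turned on log2(TPM + 1). Its catalytic subunit gene Atp5b had 2516 to 2744 CPM in Cre(−) and 1203, 1207 and 1246 CPM in KI (-1.11 ± 0.0901, SE), and its alpha subunit gene Atp5a1 changed by -1.01. Of the 3 genes for the c-ring, Atp5g1 (-1.24) and Atp5g3 (-1.15) passed the test. Atp5g2 did not (0.04, adjusted p = 0.881, edgeR), and its identical copy Gm10175 held 20239 counts over all libraries against 5491 for the gene. With its copies added Atp5g2 was at -0.14 (adjusted p = 0.309, edgeR). The other ATP synthase member that did not pass was a second identifier of Atp5o (ENSMUSG00000116933.1), with mean levels of 0.0662 CPM in Cre(−) and 0.317 CPM in KI. Atp5g1 also has a copy, Gm10039, with 15308 counts against 15831 for the gene, and was at -1.155 with it added. Ndufb4, Cox7c and Atp5l had copies with more counts than the gene, as Atp5g2 did. With copies added to all members, 83 nuclear members were lower and 2 higher.

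Complex IV, or cytochrome c oxidase, changed least, with 13 of 18 nuclear genes lower, 2 higher and a median of -0.55. Its 11 ubiquitous nuclear subunit genes were all lower with a median of -0.64, led by Ndufa4 (-1.02) and Cox7b (-1.01), with Cox5a at -0.93 and Cox5b at -0.69. Cox7a2 changed by -0.55. Cox4i1, Cox6a1 and Cox8a were lower by -0.29, -0.31 and -0.31 with TMM factors, but at 0.05, 0.04 and 0.04 with library totals and 0.18, 0.16 and 0.17 on log2(TPM + 1), so their direction turned with the scaling. Cox6b1, at -0.56, was also above 0 on log2(TPM + 1).

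Several complex IV subunits have alternative isoforms that are known from heart, muscle or hypoxic cells, and all were far below their partners in these kidneys. In Cre(−) kidneys mean TPM, a level per transcript length, was 1588 for Cox4i1 and 1.20 for Cox4i2, the isoform known to be induced by low oxygen. It was 743 for Ndufa4 and 9.03 for Ndufa4l2, its HIF1-induced relative. The heart and muscle isoforms Cox6a2, Cox7a1 and Cox8b were at 1.73, 29.1 and 6.40 TPM, against 705, 277 and 987 TPM for Cox6a1, Cox7a2 and Cox8a. Between KI and Cre(−) the 6 alternative isoform genes tested went separate ways: Cox7a1 and Cox6b2 were lower (-2.08 and -1.88), Cox8b was higher, and Ndufa4l2, Cox4i2 and Cox6a2 did not pass the test. Ndufa4l2 had 3.36, 2.25, 3.64 and 4.29 CPM in Cre(−) and 4.43, 1.89 and 2.80 CPM in KI (-0.16 ± 0.303, SE; adjusted p = 0.677, edgeR's quasi-likelihood test). Cox4i2 had 0.442 to 1.06 against 0.377 to 1.04 CPM (-0.11 ± 0.413, SE).

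Cox8b (chr7:140898945-140900446) had 3.50, 1.12, 0.662 and 1.52 CPM in Cre(−) and 6.73, 6.25 and 7.13 CPM in KI. The log2 fold change was 1.99 ± 0.391 (SE; adjusted p = 0.000398, edgeR's quasi-likelihood test), without overlap. Its level remained small, at 35.5 TPM in KI kidneys against 1104 TPM for Cox8a. Cox7a1 (chr7:30184144-30186078) went from 9.53, 6.37, 7.48 and 11.0 CPM to 2.59, 1.56 and 1.94 CPM, also without overlap. Cox8b is also known as a gene of brown fat and muscle. The 6 brown adipocyte markers summed to 44.5 to 50.9 CPM in Cre(−) and 5.88 to 20.1 CPM in KI. They were split, with 2 of 6 higher and 1 lower, and log2 fold changes from -4.27 to 6.04. The 8 striated muscle markers summed to 12.5 to 18.6 and 2.18 to 2.96 CPM (of 3 tested, 1 higher and 2 lower, from -7.71 to 0.924). Of these markers Elovl3 and Myh2 were at 0 in all Cre(−) libraries, and Myh2 and Myh4 in all KI libraries. The part of these cells in the Cox8b difference was not tested.

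Cox7a2l, a relative of the Cox7a subunits that helps to hold complexes III and IV together in supercomplexes, was the other member that rose. It had 116, 122, 119 and 130 CPM in Cre(−) and 181, 189 and 222 CPM in KI (0.70 ± 0.107, SE; adjusted p = 4.16e-05, edgeR's quasi-likelihood test), a 1.62-fold difference without overlap. Its counts have to be read with those of Gm6969, a processed pseudogene on chromosome 12 (chr12:24638669-24639010). The stretches in which the annotated transcripts differ most are shown because this difference bears on the results of the Hif2α groups; the capitals mark the differing block, 1 base in Cox7a2l and 7 bases in Gm6969, which makes the copy 6 bases longer.
Cox7a2l, bases 234 to 303 of its transcript, gene on chr17:83501918-83517330, minus strand: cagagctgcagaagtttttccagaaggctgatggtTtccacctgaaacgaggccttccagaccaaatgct
Gm6969, bases 179 to 254: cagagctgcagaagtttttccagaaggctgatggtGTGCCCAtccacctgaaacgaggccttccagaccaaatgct

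Outside this block the 342 aligned bases held 1 substitution, C358T, the Cox7a2l base first, counted from the first base of its transcript. In every library without the Hif2α flox allele Gm6969 was at 0 to 1.33 CPM. It stood at 84.1, 90.7 and 83.5 CPM in KI/Hif2α KO and at 43.2, 82.3 and 75.9 CPM in DKO. Cox7a2l itself was at 98.1, 110 and 109 CPM in KI/Hif2α KO and at 124, 92.4 and 92.3 CPM in DKO, below all KI libraries. The sum of both was 182, 201 and 192 CPM in KI/Hif2α KO and 167, 175 and 168 CPM in DKO, against 181, 189 and 223 CPM in KI.

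**Figure D3:**
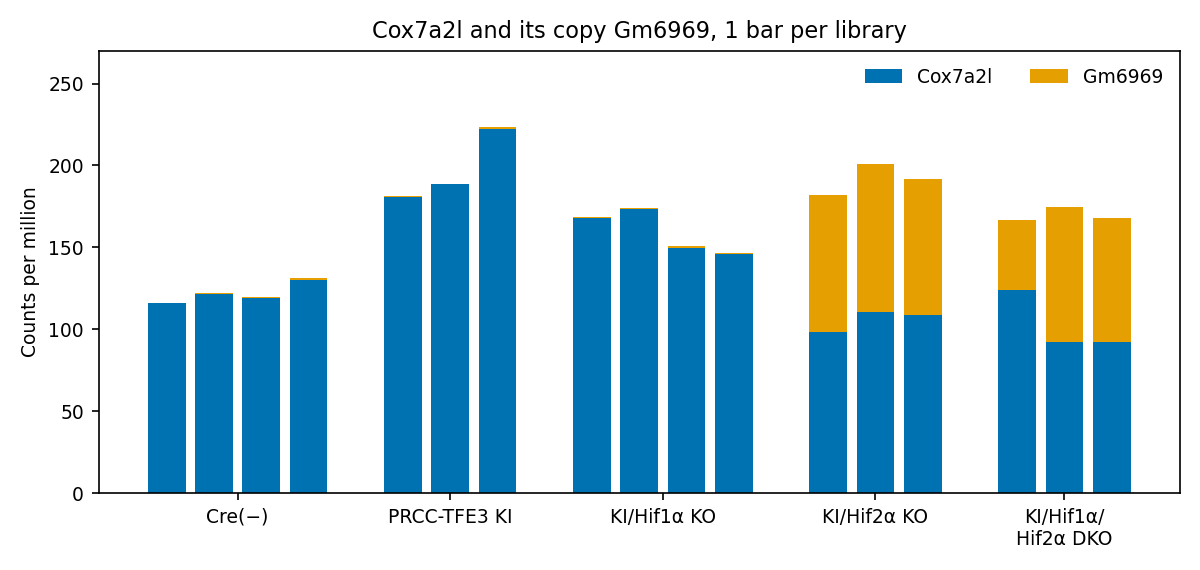
Cox7a2l (blue) and its copy Gm6969 (orange) in CPM, stacked, with 1 bar per library in order of replicate within each genotype. Gm6969 is at 43.2 CPM or more in the 6 libraries with the Hif2α flox allele and at 1.33 CPM or less in the others, while the summed height is 181 to 223 CPM in KI and 182 to 201 CPM in KI/Hif2α KO.

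As counted, Cox7a2l was lower in KI/Hif2α KO than in KI by -0.90 ± 0.116 (SE; adjusted p = 0.00661, edgeR's quasi-likelihood test) and in DKO by -0.94 ± 0.116 (adjusted p = 0.000908, edgeR). With Gm6969 added the differences were -0.04 ± 0.0890 (adjusted p = 0.83, edgeR) and -0.22 ± 0.0890 (adjusted p = 0.116, edgeR), and neither passed the test. KI/Hif1α KO, at 168, 174, 150 and 146 CPM, was higher than KI/Hif2α KO as counted (0.59 ± 0.109, SE; adjusted p = 0.0309, edgeR), and at -0.26 with the copy added (adjusted p = 0.154, edgeR). The rise from Cre(−) to KI was 0.69 with the copy added and still passed. Against KI, KI/Hif1α KO was lower by -0.31 in both counts, which passed only with the copy added (adjusted p = 0.107 as counted and 0.0435 with the copy, edgeR). Gm6969 was at 1.08 CPM or less in both of these groups. The SE, from the fit over all 5 groups, went from 0.107 to 0.083. Cox7a2l lies 3.24 Mb from Epas1, the floxed gene, on chromosome 17. Long and short forms of Cox7a2l are known among inbred mouse strains, and whether the mice of these groups differed in them was not tested.

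The promoters of nuclear members were searched for short motifs on both strands, over 250 bases before to 50 bases after the start in RefSeq (GRCm38.p6), for the 77 of 94 members that matched. The E-box CACGTG, the site of TFE3 and its relatives, was in 7.8% of members and 7.2% of all 27025 promoters. The M-box TCAYRTGA (Y is C or T, R is A or G), another site of this family, was in 1.3% of members, Ndufa7 alone, and 2.3% of all promoters. ACGTG, the core of the hypoxia response element, which CACGTG contains, was in 24.7% against 19.7%. Motifs of factors known for mitochondrial genes were held more often by members: the NRF1 motif (a palindrome in capitals in the Uqcrc1 promoter) by 9.1% against 1.0% of all promoters, CCGGAAG (the ETS family with GABP) by 22.1% against 9.1%, AAGATGGC (YY1) by 13% against 2.9% and AAGGTCA (the half-site of nuclear receptors such as ERR) by 10.4% against 4.7%. Members with CACGTG (Atp5f1, Atp5g1, Atp5g3, Atp5l, Ndufa7 and Ndufv1) had a median log2 fold change in KI against Cre(−) of -1.13, against -0.82 without it. The medians with and without the motif were -0.79 and -0.84 for the NRF1 motif, and -0.84 and -0.84 for CCGGAAG. These are descriptions without a test. A match is not a bound site.

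The promoters of Sdhb, which fell most among nuclear members above 10 CPM, of Uqcrc1, which holds the NRF1 motif, and of Cox8b, which rose, are printed with motif matches in capitals (CCGGAAG in Sdhb, the NRF1 motif in Uqcrc1, ACGTG on either strand in Cox8b).
Sdhb promoter, GRCm38 chr4:140961021-140961320, plus strand: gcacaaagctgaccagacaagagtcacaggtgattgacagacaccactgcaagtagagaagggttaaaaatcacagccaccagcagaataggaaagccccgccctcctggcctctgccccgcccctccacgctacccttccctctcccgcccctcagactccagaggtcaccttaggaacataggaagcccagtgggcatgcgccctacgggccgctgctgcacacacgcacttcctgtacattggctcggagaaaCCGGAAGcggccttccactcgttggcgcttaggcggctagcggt
Uqcrc1 promoter, GRCm38 chr9:108936398-108936697, plus strand: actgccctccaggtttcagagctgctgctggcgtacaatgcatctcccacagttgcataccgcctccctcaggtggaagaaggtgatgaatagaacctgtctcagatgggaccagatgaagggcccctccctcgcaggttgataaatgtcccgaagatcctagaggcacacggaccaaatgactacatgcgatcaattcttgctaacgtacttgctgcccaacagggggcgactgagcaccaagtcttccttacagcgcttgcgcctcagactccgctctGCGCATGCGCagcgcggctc
Cox8b promoter, GRCm38 chr7:140900397-140900696, minus strand: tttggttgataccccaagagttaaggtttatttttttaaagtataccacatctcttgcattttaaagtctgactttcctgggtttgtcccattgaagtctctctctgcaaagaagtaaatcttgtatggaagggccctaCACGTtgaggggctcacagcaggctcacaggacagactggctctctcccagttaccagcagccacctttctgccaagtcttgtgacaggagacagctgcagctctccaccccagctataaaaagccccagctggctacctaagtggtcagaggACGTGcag

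Other genes of the pathway outside the symbol rule followed the members in part. Of 37 further assembly factors and cofactor genes 23 were lower in KI against Cre(−) and none was higher, with a median of -0.57. Acad9 (-1.62), a complex I assembly factor, and Tmem70 (-1.56), needed for the ATP synthase, changed most, while Atpaf1 (-0.09) and Surf1 (-0.15) did not pass the test. Of 19 genes for electron carriers and coenzyme Q synthesis 17 were lower, with a median of -1.29. Among them were the coenzyme Q kinase-like gene Coq8a (-2.40), the electron transfer flavoprotein genes Etfa and Etfb (-1.83 and -1.66) and cytochrome c, Cycs (-1.29), whereas Coq8b was at -0.03.

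Genes that transcribe, process and replicate mitochondrial DNA were lower by less than the mt- genes. Of 24 found, 17 were lower and 1 was higher, with a median of -0.51, against -1.63 for the mt- genes. The RNA polymerase gene Polrmt changed by -0.47, the packaging and initiation factor Tfam by -0.77, the initiation factor Tfb2m by -1.03, the elongation factor Tefm by -1.16 and the RNA-binding Lrpprc by -0.85. Polg, the DNA polymerase, was higher by 0.25. Of 19 outer membrane, import and matrix genes 14 were lower and 1 was higher (median -0.42). Citrate synthase, Cs, a common yardstick of mitochondrial content, changed by -0.61 and the channel gene Vdac1 by -1.15, while the import receptor gene Tomm20 was higher by 0.28. Of 14 hypoxia-inducible genes 2 were higher (Adm 1.08 and Ankrd37 1.84) and 7 were lower. Among the latter were the mitochondrial genes Higd1a (-0.62) and Lonp1 (-0.71).

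Most tubule and podocyte markers were lower in KI than in Cre(−), as the members were. Most macrophage, lymphocyte and white adipocyte markers were higher. All 14 proximal tubule markers were lower (median -4.36), and their summed level was 26320 to 33000 CPM in Cre(−) and 1453 to 1863 CPM in KI. All 7 markers of the thick ascending limb and distal convoluted tubule were lower (7693 to 9317 against 1016 to 1744 CPM), as were 4 of 5 podocyte markers (632 to 721 against 190 to 266 CPM) and 5 of 7 collecting duct markers, with 1 higher (558 to 646 against 347 to 452 CPM). Of 8 macrophage and lymphocyte markers 6 were higher (122 to 138 against 1279 to 1304 CPM), and of 7 fibroblast and endothelial markers 3 were higher and 2 lower (383 to 494 against 531 to 575 CPM). White adipocyte markers were higher for 5 of 7 (6.21 to 96.4 against 42.7 to 1751 CPM), with the highest sum in KI replicate 2. No marker of the tubule, podocyte, blood cell, fibroblast or white adipocyte lists was at 0 throughout a group. The part of these cell types in the lower respiratory chain genes was not tested.

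**Figure D4:**
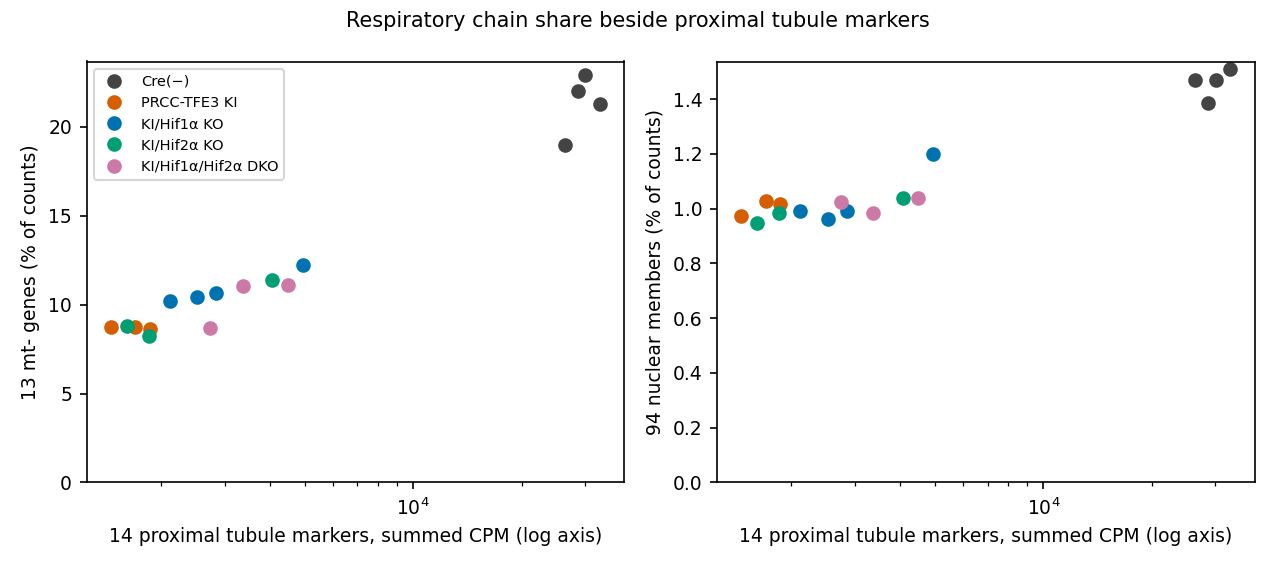
Share of counts of the 13 mt- genes (left) and the 94 nuclear members (right), in percent, against the summed CPM of 14 proximal tubule markers on a log axis, with 1 point per library. The Cre(−) libraries lie apart at 26320 CPM or more; among the Cre-positive libraries the highest mt- share, 12.3%, and nuclear share, 1.20%, belong to KI/Hif1α KO replicate 1, which also has the highest marker sum, 4941 CPM.

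The next question was whether loss of either Hif gene moved the respiratory chain away from its level in PRCC‐TFE3 KI kidneys. In KI/Hif1α KO the mt- share was 12.3%, 10.2%, 10.7% and 10.4%, above every KI library, and the nuclear share was 1.20%, 0.990%, 0.991% and 0.962%, overlapping KI. The log2 ratio of mt- to nuclear counts was 3.40 ± 0.0443 (SD, n = 4), above KI in all 4 libraries by a mean of 0.28. In KI/Hif2α KO the mt- share was 11.4%, 8.83% and 8.24% and in DKO 8.66%, 11.1% and 11.1%, and both the mt- share and the ratio overlapped KI in these groups. The mt- share of Cre(−) was not reached in any knockout library.

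Gene by gene, 2 of 13 mt- genes and 0 of 92 nuclear members passed the test in KI/Hif1α KO against KI, where 2.57% of all genes tested were called higher and 2.86% lower. At an unadjusted p under 0.05, 9 nuclear members differed, where 22.1% among all genes tested did, and DESeq2 called 1. mt-Nd4l had 1477, 1172, 1336 and 1247 CPM in KI/Hif1α KO against 725, 780 and 903 CPM in KI (0.70 ± 0.177, SE; adjusted p = 0.0328, edgeR's quasi-likelihood test). mt-Nd2 had 6110, 4127, 4826 and 4670 against 3028, 3030 and 3233 CPM (0.67 ± 0.178, SE; adjusted p = 0.0397, edgeR). Neither gene overlapped between the groups, and both stayed below all Cre(−) libraries. Without KI/Hif1α KO replicate 1 or replicate 3, or without any 1 of the 3 KI libraries, no mt- gene passed, and without KI/Hif1α KO replicate 4 only 1 did.

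Of the other mt- genes, 8 had all KI/Hif1α KO libraries above KI without passing the test, among them mt-Nd1 (0.44), mt-Nd4 (0.42), mt-Cytb (0.36), mt-Co3 (0.34) and mt-Co1 (0.32). That made 10 of 13 against 8.96% of all genes tested. As counted, mt-Nd3 (-0.85) and mt-Co2 (-0.23) went the other way. With the chromosome 1 copies added both were above 0 (0.26 and 0.20), all 13 mt- genes had a higher mean in KI/Hif1α KO, and the same number, 2, passed. With its copies added mt-Co1 went from 0.32 to 0.24. Proximal tubule markers were also higher in this group, with 6 of 14 called and a sum of 2116 to 4941 CPM against 1453 to 1863 CPM in KI, and so were those of the thick ascending limb and distal convoluted tubule, with 3 of 7 called and 5193, 2473, 3774 and 3036 CPM against 1744, 1016 and 1282 CPM, also without overlap. Macrophage and lymphocyte markers summed to 689 to 900 against 1279 to 1304 CPM (1 of 8 higher and 1 lower). The sum was lower although 6 of the 8 markers had a log2 fold change above 0 (median 0.425). Their part in the mt- differences was not tested.

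**Figure D5:**
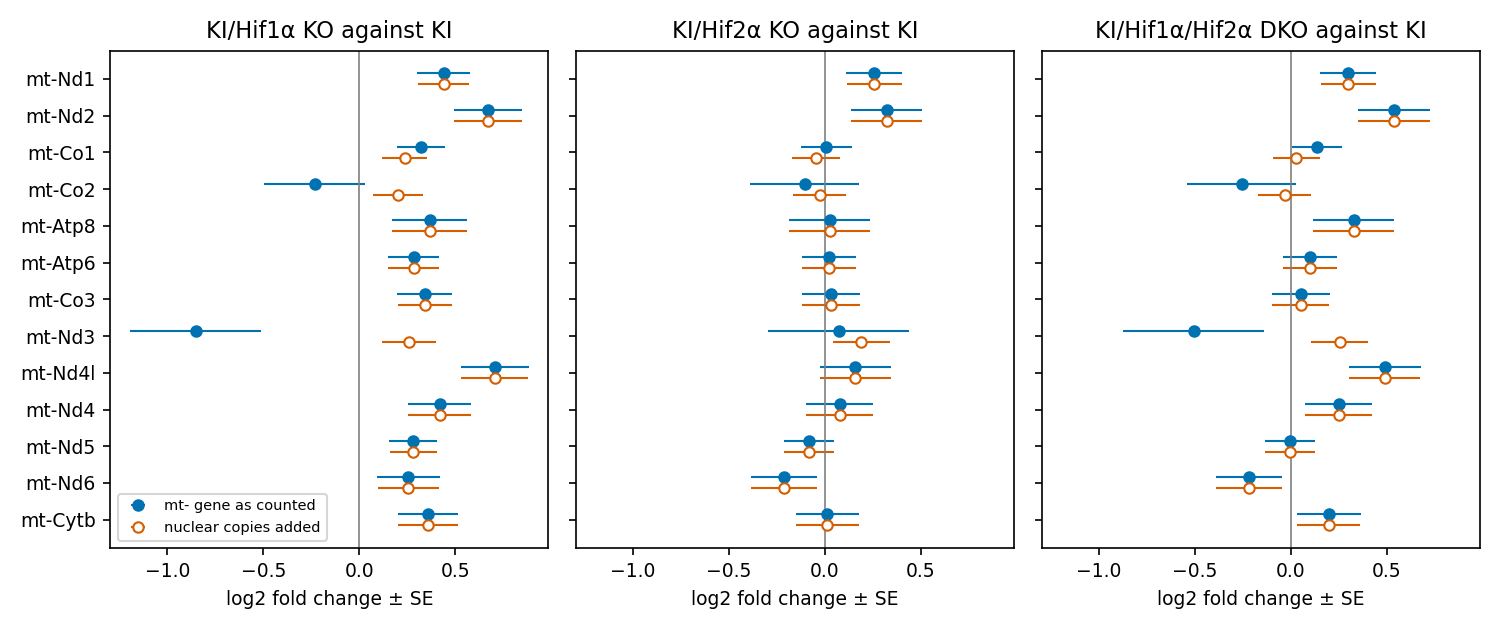
The log2 fold change ± SE of the 13 mt- genes in each knockout group against PRCC‐TFE3 KI, in genome order, as counted (filled) and with near-identical nuclear copies added (open). In KI/Hif1α KO all 13 lie above 0 once copies are added, from 0.20 to 0.70; mt-Nd3 moves from -0.85 to 0.26.

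In KI/Hif2α KO against KI none of the 13 mt- genes passed the edgeR test (median 0.02), and 2 of 92 nuclear members were lower, where 0.647% of all genes tested were called lower. Higher genes made up 53.4% of all calls, and 79.6% with library totals. Of the mt- genes 0 reached an unadjusted p under 0.05, where 19.2% among all genes tested did, and DESeq2 called 0. The nuclear members were Cox7a2l, described with its copy, and Ndufb8 of complex I (chr19:44548572-44555440). Ndufb8 had 141, 144 and 140 CPM against 174, 178 and 227 CPM in KI, a log2 fold change of -0.45 ± 0.106 (SE; adjusted p = 0.0491, edgeR's quasi-likelihood test) without overlap. In this group the thick ascending limb and distal convoluted tubule markers summed to 2228 to 4238 CPM (1 of 7 higher), without overlap with KI. The macrophage and lymphocyte markers summed to 888 to 967 CPM, below KI without overlap (0 of 8 called by edgeR). Yet 6 of these 8 had a log2 fold change above 0 (median 0.384). The proximal tubule sum of 1607 to 4072 CPM overlapped KI (0 of 14 called). The part of these markers in the Ndufb8 difference was not tested. The Ndufb8 call was lost without KI replicate 2 or 3 or without any 1 of the KI/Hif2α KO libraries.

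In DKO against KI 2 nuclear members were lower (6.19% of all genes tested), Cox7a2l and again Ndufb8, with 149, 141 and 133 CPM (-0.46 ± 0.106, SE; adjusted p = 0.0134, edgeR's quasi-likelihood test). Cox7a1, the muscle isoform, was higher (6.53% of all genes tested), with 3.99, 2.69 and 4.54 CPM against 2.59, 1.56 and 1.94 CPM (0.88 ± 0.279, SE; adjusted p = 0.0495, edgeR). Of 6 brown adipocyte markers 2, Dio2 and Ucp1, were higher in DKO. Their sums were 44.8, 15.3 and 66.9 CPM in DKO against 6.67, 20.1 and 5.88 CPM in KI, with overlap. The library order of the sums matched that of Cox7a1 in DKO but not in KI, where replicate 2 had the highest sum and the lowest Cox7a1. Striated muscle markers summed to 2.53 to 3.70 against 2.18 to 2.96 CPM, with Myh2 and Myh4 at 0 in both groups. The part of these cells in the Cox7a1 difference was not tested. The Ndufb8 call was lost without KI replicate 3 or DKO replicate 2 or 3, and the Cox7a1 call without KI replicate 2 or 3 or any 1 of the DKO libraries. Higher genes made up 51.3% of all calls in this comparison, and 74.6% with library totals. No mt- gene passed the edgeR test (median 0.14), 2 reached an unadjusted p under 0.05, where 29.1% among all genes tested did, and DESeq2 called 2. Ndufa4l2 had 4.87, 5.90 and 5.37 CPM, above all KI libraries (0.83 ± 0.318, SE; adjusted p = 0.0977, edgeR), and Cox4i2 had 0.633 to 1.17 CPM, overlapping KI. In DKO 8 of 14 proximal tubule markers were higher than in KI (2741 to 4493 against 1453 to 1863 CPM), as were 4 of 7 of the thick ascending limb and distal convoluted tubule (3069 to 5326 against 1016 to 1744 CPM). Macrophage and lymphocyte markers summed to 565 to 806 against 1279 to 1304 CPM (1 of 8 higher and 1 lower), although 6 of the 8 had a log2 fold change above 0 (median 0.433). None of these 3 sums overlapped KI, and their part in the member differences was not tested. The KI libraries enter each of these comparisons.

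Compared directly, KI/Hif1α KO and KI/Hif2α KO differed in 1 nuclear member, Cox7a2l, and in no mt- gene, where 0.329% of all genes tested were called higher and 0.0999% lower. Higher genes made up 76.7% of all calls, and 59.7% with library totals. Of the 13 mt- genes 7 had an unadjusted p under 0.05, where 14.9% among all genes tested did, and DESeq2 called 0. Among these 7, mt-Nd3 was lower as counted (-0.92), and was at 0.07 with its copy added. The difference was 0.55 ± 0.176 (SE; adjusted p = 0.160, edgeR) for mt-Nd4l and 0.36 ± 0.124 (adjusted p = 0.178, edgeR) for mt-Nd5. The higher mt- level of KI/Hif1α KO over KI was thus not shown to differ from that of KI/Hif2α KO.

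Against Cre(−) all knockout groups stayed low. All 13 mt- genes were lower in each group, with medians of -1.35 in KI/Hif1α KO, -1.57 in KI/Hif2α KO and -1.46 in DKO. Of 92 nuclear members 84, 85 and 86 were lower (medians -0.80, -0.93 and -0.94), where 30.1%, 29.9% and 27.9% of all genes tested were called lower. Sdhb had 132, 85.0, 101 and 91.1 CPM in KI/Hif1α KO, 102, 82.1 and 93.8 CPM in KI/Hif2α KO and 99.7, 105 and 95.7 CPM in DKO, all below its lowest Cre(−) value of 281 CPM. Cox8b was higher in each group, with 6.48 to 10.2, 5.72 to 9.03 and 5.53 to 11.0 CPM and log2 fold changes of 2.23, 2.21 and 2.38, where 31.9%, 32% and 30.4% of all genes tested were called higher. As counted, Cox7a2l was called higher in KI/Hif1α KO (0.39) and not in the other two groups. With Gm6969 added it was higher in all 3, by 0.39 ± 0.078 in KI/Hif1α KO, 0.65 ± 0.083 in KI/Hif2α KO and 0.47 ± 0.083 in DKO (SE; adjusted p = 0.000471, 7.1e-06 and 0.000168, edgeR's quasi-likelihood test), without overlap. The nuclear members not counted here as lower or higher did not pass. Higher genes made up 51.5%, 51.7% and 52.1% of all calls, and 76.2%, 79.1% and 81.6% with library totals. With library totals 68, 72 and 68 nuclear members were lower. On log2(TPM + 1) 59 were lower and 4 higher in each group. These comparisons share the Cre(−) libraries.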

How the data were processed

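Kidney polyA RNA of 17 mice was sequenced, 1 library per mouse. The authors deposited, per transcript, RSEM expected counts and TPM values (transcript levels scaled by the authors to length and library) from reads trimmed with Trim Galore 0.6.6 and cutadapt 2.5 and aligned with STAR 2.7.9a, the versions being from the submitters' processing notes. Those notes name both hg38 and GRCm38, and the transcript identifiers are mouse. RSEM shares reads between near-identical transcripts by estimate. Of 119353 transcripts 116770 (97.8%) matched GENCODE M21 and were summed to 35971 genes. Expected counts were rounded to whole numbers. Genes with low counts were left out (minimum count 10 in edgeR's filter), leaving 17011 tested and 18960 not tested.

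Genotypes were compared by edgeR's quasi-likelihood test with TMM factors, 1 fit over all 5 groups and no covariate, and Benjamini-Hochberg adjustment at 0.05 over all genes tested (edgeR 4.0.16, limma 3.58.1, DESeq2 1.42.0, R 4.3.3, Python 3.11.15, pandas 2.3.3, matplotlib 3.10.9). The labels do not say whether mice shared a litter or a day, so p-values measure the spread between these mice. Counting error adds to that spread and is larger, relative to the level, near 1 CPM than above 10 CPM. Its size beside the differences between mice was not tested. The fitting code was tested on simulated data. Alternatives were DESeq2, its size factors, library totals, exclusion of mt- genes, no filter, 2 groups only, a replicate block, limma on log2(TPM + 1) and log2(TPM + 0.1), either pair of Cre(−) libraries as control, and each library left out. After the data were seen, counts of near-identical copies (at least 97% identity over 75 bases or more and 50% of the copy) were added to members.

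Named genes were fixed isoform pairs, core or catalytic subunits, the 13 mt- genes and, per comparison, the 3 largest called changes in each direction without overlap at a mean of 1 TPM or more. Other genes were named after their values were seen. The members and gene lists were chosen with earlier results of these data known. Of the list of genes for mitochondrial DNA expression, 24 of 26 symbols were found.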

Additional observations from a re-analysis of the deposited data

Results flagged for a closer look

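In KI/Hif1α KO, replicate 1 stood apart from the other 3 libraries by Dixon's gap criterion in 8 measures, on the high side each time: 615.9 CPM for Atp5a1, 91.35 CPM for Cox5a, 180.7 CPM for Ndufa4, 139.7 CPM for Sdhc, 109.3 CPM for Uqcrfs1, 11720 CPM for mt-Co3, 10970 CPM for mt-Nd1, and a nuclear share of 1.20% of counts. These were all 8 such gaps among 80 groups of 4 libraries examined. Chance gives a gap in about 1 in 20 independent groups. These groups were not independent, because the genes were measured in the same libraries and the nuclear share contains the nuclear genes named. Their number therefore cannot be set against that rate. The same library had the highest proximal tubule marker sum of the Cre-positive libraries, 4941 CPM, and the part of those cells in the gaps was not tested.

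The difference between KI/Hif1α KO and KI/Hif2α KO, both measured against the same KI libraries, passed the edgeR test for Cox7a2l (log2 0.59), and did not pass once counts of Gm6969 were added (-0.26).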

How the results depend on the processing

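All 13 mt- genes stayed called lower in KI against Cre(−) under each alternative that kept these genes except limma on TPM, where 12 were called at both pseudocounts and mt-Co2, at -0.67, did not pass. Of single-gene results under alternatives other than leaving out a library, 602 kept direction and call, 35 lost the call, 7 gained it and 24 turned. The main nuclear calls for KI against Cre(−) were 83 lower and 2 higher. They were 69 lower with library totals, and 58 lower and 5 higher under limma at both pseudocounts. When single libraries were left out, 78 to 84 were lower. Between KI/Hif1α KO and KI, nuclear calls were 1 with DESeq2 and 1 with copies added instead of 0, and mt- calls were 1 without a filter and 0 under limma at both pseudocounts instead of 2 (0 to 2 without single libraries). Between KI/Hif2α KO and KI, nuclear calls were 1 with library totals, without mt- genes, without a filter, under limma at 0.1 and with copies, and 0 with 2 groups only, instead of 2 (1 to 2 without single libraries). For DKO against KI, nuclear calls were 5 with DESeq2 and 1 with 2 groups only instead of 3 (1 to 4 without single libraries), and mt- calls 2 with DESeq2 and with library totals instead of 0 (0 to 2). Between KI/Hif1α KO and KI/Hif2α KO, nuclear calls were 0 under limma at both pseudocounts and with copies instead of 1 (0 in every fit without 1 library), and mt- calls were 0 to 1 without single libraries. Against Cre(−), nuclear calls lower in KI/Hif1α KO, KI/Hif2α KO and DKO were 68, 72 and 68 with library totals instead of 84, 85 and 86. Under limma at both pseudocounts they were 59 in each group, except 57 for DKO at 0.1, and 4 were higher. For KI against Cre(−), these log2 fold changes turned with library totals, log2(TPM + 1) and log2(TPM + 0.1), in that order: Cox4i1 0.05, 0.18 and 0.18, Cox4i2 0.24, 0.18 and 0.29, Cox6a1 0.04, 0.16 and 0.16, Cox6a2 0.15, 0.19 and 0.30, Cox8a 0.04, 0.17 and 0.17, and Ndufb8 0.11, 0.26 and 0.26. Ndufa4l2 was at 0.20 with library totals and 0.12 with Cre(−) replicates 1 and 2 as control, where Cox6a2 was at 0.50. Without single libraries the lowest values were -0.58 for Cox4i2, -0.64 for Cox6a2, -0.53 for Ndufa4l2 and the highest 0.71 for Cox4i2 in KI/Hif2α KO against KI, each without KI replicate 1. Leaving out Cre(−) replicate 3 gave 0.14 for Cox4i2 and 0.18 for Cox6a2, and leaving out KI replicate 2 gave 0.18 for Cox4i2, 0.10 for Ndufa4l2 and, in KI/Hif2α KO against KI, -0.05 for Cox4i2. Copies turned mt-Co2 (0.20) and mt-Nd3 (0.26) in KI/Hif1α KO against KI and Cox7a2l (-0.26) between the single knockouts. The cause of the other changes was not tested. Deviations from the group means of 31 same-numbered pairs of libraries correlated between -0.22 and 0.25, with 4 over 0.1. Pairs with different numbers were not compared, so these values do not decide whether replicate numbers paired the mice. With the replicate block 81 nuclear members were lower in KI against Cre(−), mt- calls in KI/Hif1α KO against KI were 0, nuclear calls in KI/Hif2α KO against KI 1, and nuclear calls between the single knockouts 0.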
